A study of Mus musculus with 6 samples.

Results

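The genes described here encode 9 enzymes of nucleotide synthesis, Tyms, Ctps, Ctps2, Rrm1, Rrm2, Tk1, Umps, Cad and Impdh2, measured in mouse embryonic kidneys given an inhibitor of histone deacetylases (HDACs) or its inactive relative. They were taken by gene name from the annotation in the scanner files, without control spots, which gave 18 of 41174 probes and 9 of 27670 named genes or identifiers. Kidneys of CD1 mouse embryos at E13.5 were grown as explants on filters and given Scriptaid, a hydroxamic acid that inhibits HDACs, or Nullscript, its structural relative used as the inactive control. Both drugs were used at 2.0 µg/ml for 6 hours on paired kidneys, and no untreated kidney is part of the series. RNA of both drugs, each in its own dye, was hybridised together on 6 arrays. By the dye fields, Cy3 marked the Scriptaid RNA on 3 of them and Cy5 on the other 3, whereas the series' own text has 4 arrays, 2 of them dye-swapped; the dye fields were used. The arrays are 3 biological replicates with the dyes exchanged, and how many embryos were pooled per replicate is not stated. P-values therefore measure only the spread between these 3 samples. Each explant holds all cell types of the kidney, and in such bulk RNA fewer cells of a type and less RNA per cell cannot be told apart.

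Cells that copy their DNA need deoxynucleotides, and they make them in a few linked steps. Pyrimidines are built from small molecules to UMP, purines to IMP, and UMP and IMP are turned into the other ribonucleotides. Ribonucleotide reductase then removes the oxygen of the ribose, and thymidylate is made in a step that uses a folate. Salvage enzymes recover bases and nucleosides. Several of these genes, among them those of ribonucleotide reductase, thymidylate synthase and thymidine kinase, are known for a rise at the start of S phase, and E2F and Myc are known regulators of the group. In the embryonic kidney, nephron progenitors and the tips of the ureteric bud divide fast.

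The direction of every ratio rests on the dye fields of the labels. Ratios are log2 of the intensity labelled Scriptaid over that labelled Nullscript. A gene is called Scriptaid-high or Nullscript-high by the label of its brighter channel, where limma gave an adjusted p under 0.05. Of all genes tested, 22.5% were Scriptaid-high and 23.7% Nullscript-high. Of 10 genes known to rise under HDAC inhibitors elsewhere, 0 were Scriptaid-high and 9 were Nullscript-high. Among these 9, Tuba1a was saturated on 5 arrays for Scriptaid and 3 for Nullscript and changed sign with the dye (0.34 with Scriptaid in Cy3, -1.18 in Cy5), and without it 8 of 9 were Nullscript-high. The log2 ratio was -1.72 ± 0.06 (SD, n = 3) for H1f2, which encodes a linker histone, and -1.63 ± 0.17 for Ckb, a creatine kinase. It was -1.04 ± 0.14 for Gsn, which severs actin filaments, and -1.01 ± 0.08 for Txnip, which binds thioredoxin. Of 6 genes known to fall elsewhere, 4 were Scriptaid-high and 0 Nullscript-high, with Ccnd1, the gene of cyclin D1, at 1.90 ± 0.19 and Ccnb1, that of cyclin B1, at 0.59 ± 0.12. These known genes thus ran against the labels, and with the 2 names exchanged all signs below would be opposite. The 2 lists of known genes were chosen with earlier results of these data known. Between 91.5% and 96.5% of the spots other than control spots were well above background per channel and array. The arrays of replicates 1 and 2 lay on the same slide, those of replicate 3 on a second.

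The promoters of 3 members, Rrm2, Rrm1 and Ctps2, held a CCAAT box, as did 33.8% of all promoters. Those of Tyms and Impdh2, whose ratios had opposite signs, held an E-box, the motif bound by Myc, as did 6.02% of all promoters. The promoters of these members are shown because they carry the CCAAT and E-box matches found in the 250 bases before a start site. The 120 bases next to the start site are printed 5′ to 3′ on the strand of the gene, from RefSeq on GRCm38.p6, with the matched motif in capitals. The window of Rrm2 is chr12:24708134-24708253 on the plus strand and that of Rrm1 is chr7:102441575-102441694 on the plus strand. The window of Ctps2 is chrX:162902051-162902170 on the plus strand, that of Tyms is chr5:30073626-30073745 on the minus strand, and that of Impdh2 is chr9:108560316-108560435 on the plus strand.
Rrm2: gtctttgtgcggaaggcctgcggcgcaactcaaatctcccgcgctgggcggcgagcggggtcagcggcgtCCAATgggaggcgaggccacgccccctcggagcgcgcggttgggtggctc
Rrm1: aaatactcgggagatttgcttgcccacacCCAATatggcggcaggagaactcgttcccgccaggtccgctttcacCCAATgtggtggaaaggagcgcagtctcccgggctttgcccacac
Ctps2: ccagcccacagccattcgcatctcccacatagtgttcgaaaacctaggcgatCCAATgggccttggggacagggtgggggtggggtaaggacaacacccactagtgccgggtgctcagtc
Tyms: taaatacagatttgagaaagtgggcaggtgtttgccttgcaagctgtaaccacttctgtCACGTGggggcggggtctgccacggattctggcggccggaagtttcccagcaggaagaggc
Impdh2: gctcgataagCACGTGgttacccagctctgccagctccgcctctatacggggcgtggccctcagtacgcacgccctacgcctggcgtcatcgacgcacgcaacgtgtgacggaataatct

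Both strands of 250 bases before each start site were searched, and no match in a member overlapped another. All 9 genes were in the promoter table, with 12 start sites. The CCAAT box (CCAAT) was found before a start site of 3 of the 9 genes, in 3 of their 12 promoters, and 33.8% of all 32851 promoters of the table held it. Rrm1 had 2 of these boxes, which end 86 and 40 bases before the start site. The box ends 45 bases before it in Rrm2 and 63 bases before the printed start site of Ctps2. Ctps2 had 3 start sites, and the windows of the others held none of the motifs. The E-box (CACGTG) was found in 2 of the 12 promoters and in 6.02% of all promoters. The CHR motif (TTTGAA), an element of cell cycle promoters, was found in 1 of the 12, that of Umps, and in 16.0% of all promoters. No member held the E2F motif, TTT followed by 2 bases that are each C or G and then CGC, which 1.86% of all promoters held. A match is a description of these letters and not a binding site.

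Of the 9 genes, 7 were Scriptaid-high and 1, Impdh2, was Nullscript-high, while Umps did not pass. Of all 26498 genes tested, 46.2% passed in either direction, 22.5% as Scriptaid-high and 23.7% as Nullscript-high. All 9 members passed the filter on dim probes. The median log2 ratio of the members was 0.63, beside -0.0090 over all genes. The order ran from Rrm2 at 1.13 over Ctps2, Tyms, Rrm1, Tk1, Ctps and Cad to Umps and then Impdh2 at -0.45. The replicate ranges of neighbours overlapped between Rrm2 and Ctps2 and along Tyms, Rrm1, Tk1 and Ctps. They did not overlap between Ctps2 and Tyms, nor at any step from Ctps downward.

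**Figure D1:**
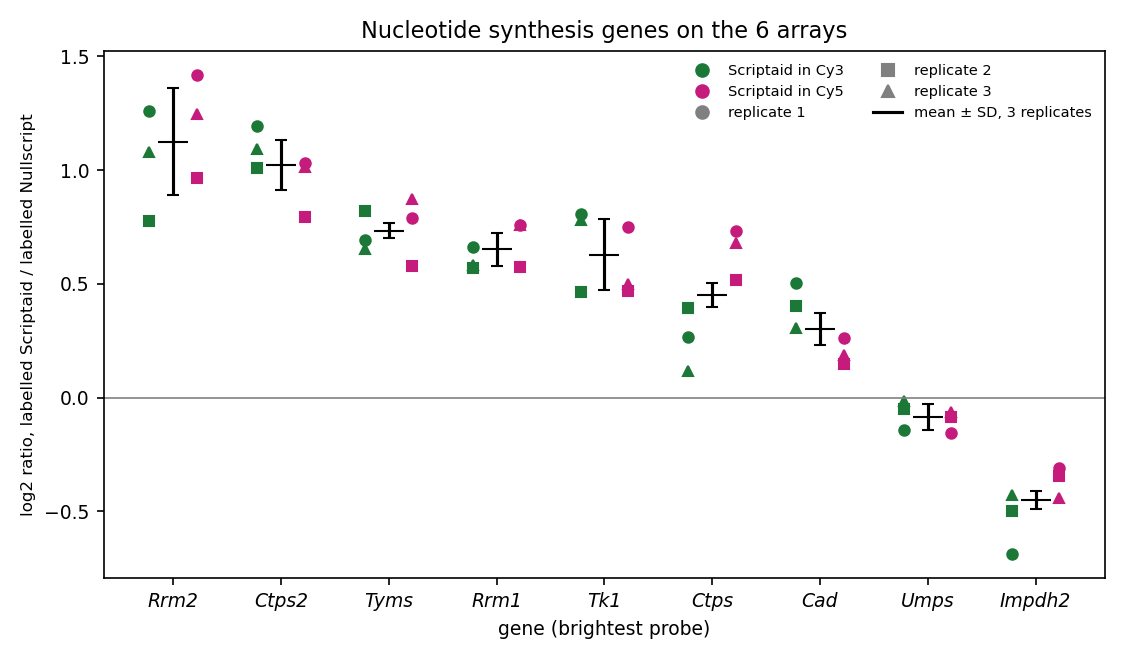
Log2 ratio, labelled Scriptaid over labelled Nullscript (vertical axis, no unit) for the brightest probe of each of the 9 genes (horizontal axis), with 1 point per array, colours for the dye of Scriptaid, shapes for the replicate, and black bars for the mean ± SD of 3 replicates. From Rrm2 to Cad all 6 arrays lie above 0, and for Umps and Impdh2 all 6 lie below it.

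The 2 subunits of ribonucleotide reductase, which makes deoxynucleotides from ribonucleotides, were both Scriptaid-high. Rrm2 encodes the small subunit, which carries the radical and whose amount follows S phase. Its log2 ratios with Scriptaid in Cy3 were 1.26, 0.78 and 1.08 in replicates 1, 2 and 3, and with Scriptaid in Cy5 they were 1.42, 0.97 and 1.25. All 6 arrays were above 0, and replicate 2 was the lowest in either dye orientation. The mean was 1.13 ± 0.24 (SD, n = 3), which is 2.18-fold (95% interval of the log2 ratio 0.89 to 1.36, limma adjusted p = 0.000651). The normalised log2 level was 12.96 ± 0.29 for Scriptaid and 11.83 ± 0.06 for Nullscript. Rrm1 encodes the large, catalytic subunit. Its log2 ratios were 0.66, 0.57 and 0.58 with Scriptaid in Cy3 and 0.76, 0.58 and 0.76 with Scriptaid in Cy5. These arrays lay close together, and the mean was 0.65 ± 0.07 (SD, n = 3), or 1.57-fold (limma adjusted p = 0.000273). The ratio of Rrm2 exceeded that of Rrm1 by 0.63, 0.30 and 0.49 in the 3 replicates, by 0.47 ± 0.17 on average. A second Rrm1 probe, made for the transcript AK049601, was not well above background in any channel of any array and was not tested.

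Rrm2b encodes the other small subunit, which is induced by DNA damage and serves cells outside S phase. It went the opposite way to Rrm2, with log2 ratios of -0.49, -0.52 and -0.57 in replicates 1, 2 and 3. The mean was -0.53 ± 0.04 (SD, n = 3, limma adjusted p = 0.000265). The difference between Rrm2 and Rrm2b was 1.83, 1.40 and 1.73 in the 3 replicates, with a mean of 1.65 ± 0.23. Differences between genes are given as values only and were not tested. With 3 replicates, a two-sided exact sign-flip test of such a value cannot go below 0.25.

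Thymidylate is made from dUMP by thymidylate synthase, the product of Tyms, or recovered from thymidine by the cytosolic thymidine kinase, the product of Tk1. Tyms had log2 ratios of 0.69, 0.82 and 0.65 with Scriptaid in Cy3 and 0.79, 0.58 and 0.87 with Scriptaid in Cy5. All 6 arrays were above 0 with no gap between the dye orientations, and the mean was 0.73 ± 0.03 (SD, n = 3), or 1.66-fold (limma adjusted p = 0.000152). Tk1 had log2 ratios of 0.81, 0.46 and 0.78 with Scriptaid in Cy3 and 0.75, 0.47 and 0.50 with Scriptaid in Cy5. Its mean was 0.63 ± 0.16 (SD, n = 3), or 1.55-fold (limma adjusted p = 0.00125). Replicate 2 was again the lowest, at 0.47 against 0.78 in replicate 1 and 0.64 in replicate 3.

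Tk2, the mitochondrial thymidine kinase, was Nullscript-high. It had log2 ratios of -1.01, -0.79 and -0.89 in the 3 replicates, a mean of -0.90 ± 0.11 (SD, n = 3, limma adjusted p = 0.000255). Tk1 exceeded Tk2 by 1.52 ± 0.27 within replicates.

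**Figure D2:**
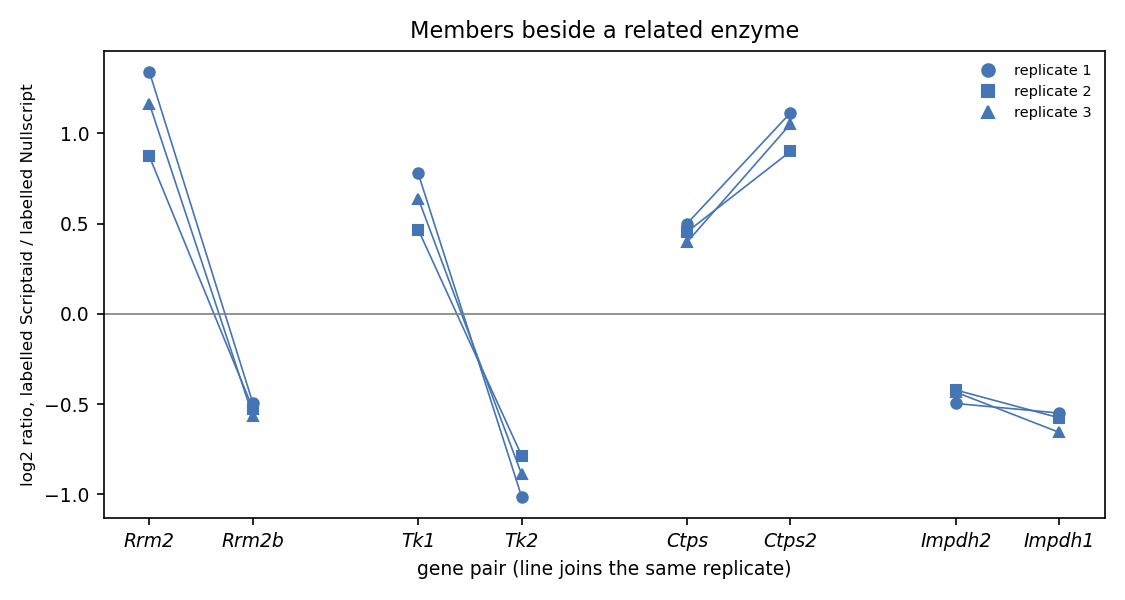
Log2 ratio, labelled Scriptaid over labelled Nullscript (vertical axis, no unit) in each of the 3 replicates for a member and a related enzyme, with lines that join the same replicate. Rrm2 and Tk1 lie above 0 while Rrm2b and Tk2 lie below it in every replicate, Ctps and Ctps2 lie above 0, and Impdh2 and Impdh1 lie below it.

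Both CTP synthases, which turn UTP into CTP, were Scriptaid-high, with the larger ratio for Ctps2. Ctps2 had log2 ratios of 1.19, 1.01 and 1.09 with Scriptaid in Cy3 and 1.03, 0.79 and 1.01 with Scriptaid in Cy5. All 6 arrays were well above 0, and the mean was 1.02 ± 0.11 (SD, n = 3), or 2.03-fold (95% interval 0.89 to 1.15, limma adjusted p = 0.000191). Its normalised log2 level was 13.22 ± 0.04 for Scriptaid and 12.20 ± 0.15 for Nullscript. Ctps had 0.27, 0.39 and 0.12 with Scriptaid in Cy3 and 0.73, 0.52 and 0.68 with Scriptaid in Cy5. The 2 dye orientations did not overlap, and their difference of -0.38 passed (limma adjusted p = 0.0458, a call made for 5.42% of all genes). Adjusted over probes in place of genes, the same difference did not pass (limma adjusted p = 0.0561). The mean over both was 0.45 ± 0.05 (SD, n = 3), or 1.37-fold (limma adjusted p = 0.000487), and it passed in each orientation alone, with 0.26 (adjusted p = 0.0223) and 0.64 (adjusted p = 0.000198). Ctps2 exceeded Ctps by 0.61, 0.45 and 0.65 in the 3 replicates, by 0.57 ± 0.11 on average.

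Of the members on the route to UMP, Cad was Scriptaid-high and Umps did not pass. Cad, whose protein carries out the opening steps of pyrimidine synthesis, had log2 ratios of 0.50, 0.40 and 0.30 with Scriptaid in Cy3 and 0.26, 0.15 and 0.19 with Scriptaid in Cy5. The dye orientations did not overlap, with means of 0.40 and 0.20, and their difference did not pass (limma adjusted p = 0.114). The mean over both was 0.30 ± 0.07 (SD, n = 3), or 1.23-fold (limma adjusted p = 0.00253). Umps, whose protein makes UMP from orotate, had log2 ratios of -0.14, -0.05 and -0.01 with Scriptaid in Cy3 and -0.15, -0.09 and -0.06 with Scriptaid in Cy5. All 6 values were below 0 and close to it, and the mean of -0.09 ± 0.06 (SD, n = 3) did not pass (limma adjusted p = 0.107). The 95% interval ran from -0.17 to 0.0036. Dhodh, the mitochondrial enzyme between these enzymes, had 0.00 ± 0.03 and did not pass (limma adjusted p = 0.968).

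Impdh2 was the Nullscript-high member. Its protein turns IMP into XMP, the rate-limiting step toward guanine nucleotides, and it is the form associated with growing cells. Its log2 ratios were -0.69, -0.50 and -0.43 with Scriptaid in Cy3 and -0.31, -0.35 and -0.44 with Scriptaid in Cy5. All 6 arrays were below 0, and the mean was -0.45 ± 0.04 (SD, n = 3), which is 1.37-fold higher for Nullscript (limma adjusted p = 0.000404). Impdh1, the isoenzyme, had -0.55, -0.58 and -0.66 in the 3 replicates, with a mean of -0.59 ± 0.06 (SD, n = 3, limma adjusted p = 0.000266). So the 2 isoenzymes lay on the same side, unlike the pairs Rrm2 and Rrm2b or Tk1 and Tk2.

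The probes of a gene did not all give the same value. Of the 17 probes tested, 10 were Scriptaid-high, 2 Nullscript-high and 5 did not pass. Of all 39405 probes, 45.2% passed, 23.5% as Scriptaid-high and 21.8% as Nullscript-high. For Tyms, the 2 probes made for NM_021288 had log2 ratios of 0.73 ± 0.03 and 0.74 ± 0.06 (SD, n = 3), and the remaining probe, made for the sequence X14489, had -0.02 ± 0.02 (limma adjusted p = 0.579). That probe was dim, at a mean log2 brightness of 8.49 against 13.99 and 13.38. For Cad, all 4 probes were made for NM_023525, and in order of falling brightness their ratios were 0.30, 0.33, 0.19 and 0.01. The dimmest of them, at 9.39, did not pass (limma adjusted p = 0.865). For Umps, the other probes had 0.00 and -0.06 and did not pass either, and for Impdh2 the other probe had -0.44 ± 0.05. Rrm2, Tk1, Ctps and Ctps2 had 1 probe each. No member spot was saturated on any array. The position of the probes in their transcripts was not analysed here.

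**Figure D3:**
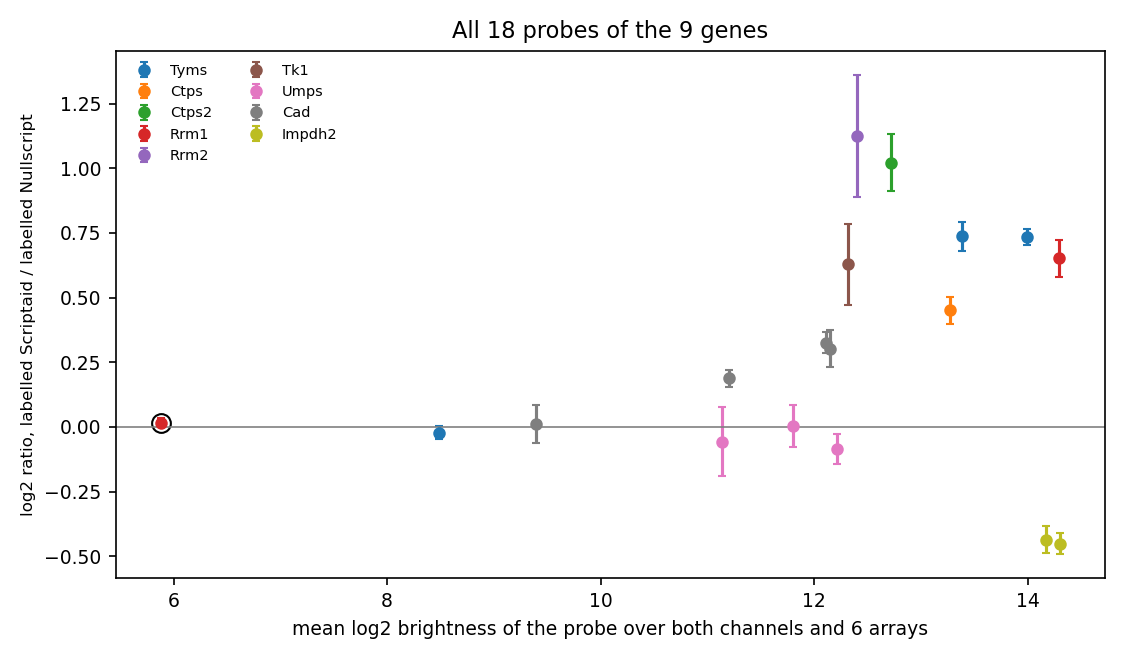
Mean log2 ratio, labelled Scriptaid over labelled Nullscript (vertical axis, no unit) against the mean log2 brightness over both channels and 6 arrays (horizontal axis, log2 intensity) for each of the 18 probes, coloured by gene, with bars of the SD over 3 replicates and a ring around the Rrm1 probe that was not tested. The 2 bright Tyms probes lie at 0.73 and 0.74 and the dim one at -0.02, and the dimmest Cad probe lies at 0.01.

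The other genes of nucleotide supply went in both directions, as did all genes tested, of which 22.5% were Scriptaid-high and 23.7% Nullscript-high. The counts of the purine, pyrimidine, salvage, folate and replication lists are to be read beside these shares. For purine synthesis, 4 of 12 genes were Scriptaid-high, 3 Nullscript-high and 5 did not pass, with a median log2 ratio of 0.09. Ppat, which catalyses the committed step, had -0.63 ± 0.04 (SD, n = 3) and -0.55 by its other probe. Gart, which catalyses several later steps, had -0.55 ± 0.12, with -0.10 and -0.09 by its other probes. Prps2, which supplies the activated ribose, had 0.53 ± 0.17 and 0.59 by its other probe. So Impdh2 lay on the side of Ppat, Gart and Impdh1. On the other side, beside Prps2, lay Prps1 at 0.39 ± 0.09, Adsl at 0.43 ± 0.09 and Adss at 0.35 ± 0.14. By their other probes Prps1 had 0.46 and Adss 0.34.

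For pyrimidine and deoxynucleotide metabolism outside the 9 members, 4 of 10 genes were Scriptaid-high, 3 Nullscript-high and 3 did not pass, with a median of 0.0078. Nme1, a nucleoside diphosphate kinase, had 0.41 ± 0.10 (log2, SD, n = 3), and Dctpp1, which breaks down dCTP, had -0.34 ± 0.05. Nme2 was saturated on 6 arrays for Scriptaid and on 4 for Nullscript, and no ratio over all arrays is given for it. It is 1 of the 3 Nullscript-high genes, and without it the counts were 4, 2 and 3 of 9 and the median 0.014. Of 14 salvage genes, 3 (21.4%, near the 22.5% of all genes) were Scriptaid-high, 5 Nullscript-high and 6 did not pass. The lowest were Adk, adenosine kinase, at -1.04 ± 0.10, and Ada, adenosine deaminase, at -0.95 ± 0.06, followed by Tk2. Uckl1, a relative of the uridine-cytidine kinases, had 0.62 ± 0.04.

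Folate genes supply the carbon units for thymidylate and purines. Of 12, 7 were Scriptaid-high, 4 Nullscript-high and 1 did not pass, with a median log2 ratio of 0.24. Mthfs, which returns a stored folate to use, had 1.11 ± 0.11 (SD, n = 3) but 0.15 by its other probe. Mthfd1l, a mitochondrial formate producer, had 0.76 ± 0.07. Slc19a1, the reduced folate carrier, had 0.73 ± 0.26 but 0.05 by its other probe. Mthfd2, another mitochondrial enzyme of this route, had -0.60 ± 0.25.

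Of 22 DNA replication genes, 13 (59.1%) were Scriptaid-high, 4 Nullscript-high and 5 did not pass, beside 7 of 9 members (77.8%), and the median log2 ratio was 0.25. Mcm7, a subunit of the replicative helicase, had 0.65 ± 0.09 (SD, n = 3), Gins1, its partner in the active helicase, 0.63 ± 0.05, and Lig1, which joins new DNA fragments, 0.60 ± 0.04. Mcm3, another helicase subunit, was saturated in its Scriptaid channel on 2 arrays and had 0.72 by its other probe. Without the 4 genes with a saturated spot, 11 of 18 were Scriptaid-high and 4 Nullscript-high, with a median of 0.31. The Nullscript-high genes were Cdc6 at -0.33 ± 0.12, with -0.81 by its other probe, and Gins2 at -0.20 ± 0.11. Prim1 at -0.18 ± 0.02 and Rfc4 at -0.12 ± 0.03 were the others. The values of Rrm1, Tk1 and Tyms lie near those of Mcm7 and Gins1, which had the highest ratios of the list, above its median of 0.25. Whether the members differ from this list was not tested.

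**Figure D4:**
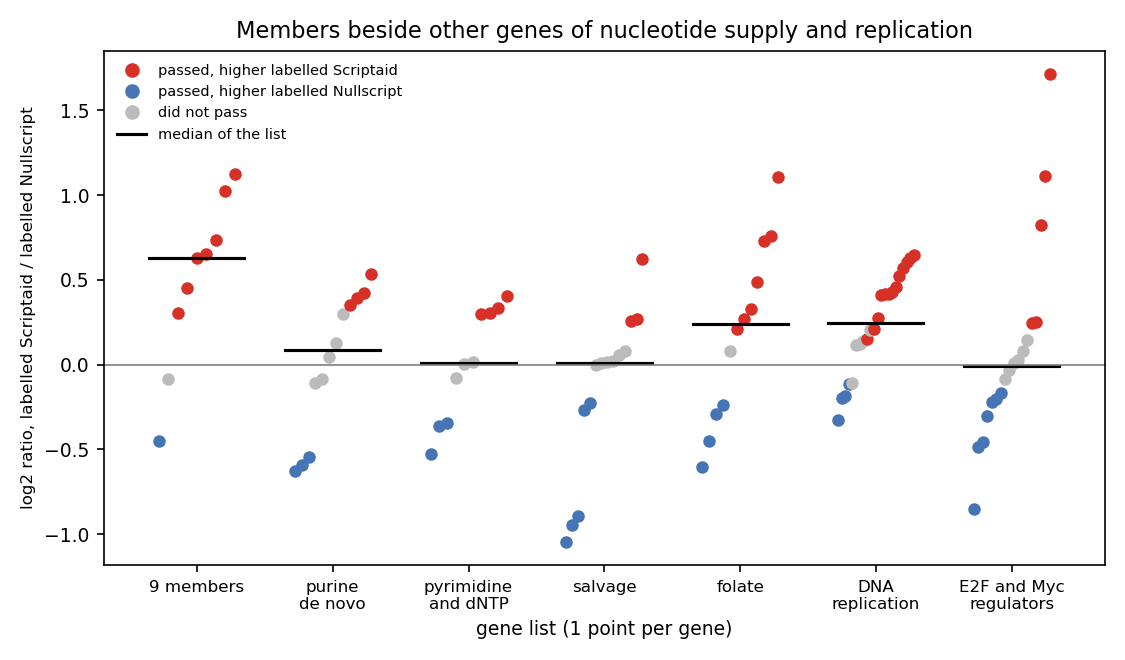
Log2 ratio, labelled Scriptaid over labelled Nullscript (vertical axis, no unit) for the 9 members and for 6 lists of other genes (horizontal axis), with 1 point per gene, coloured by the call at a limma adjusted p under 0.05, and a bar at the median. The members have a median of 0.63, the DNA replication list 0.25, the folate list 0.24, and the purine list 0.09.

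Among 18 E2F, Rb and Myc family genes, 5 (27.8%) were Scriptaid-high, 7 Nullscript-high and 6 did not pass. Over all genes, 22.5% were Scriptaid-high and 23.7% Nullscript-high. Myc, a regulator of Cad and other members, had 1.71 ± 0.28 (log2, SD, n = 3), with 0.30 and 1.76 by its other probes, and Mycn had 1.11 ± 0.04 and 0.61 by its other probe. E2f3, an activator of S phase genes, had 0.82 ± 0.03, with 0.24 and 0.42 by its other probes, and E2f1 had 0.25 ± 0.07. E2f1 had -0.01 on the arrays with Scriptaid in Cy3 alone and 0.51 on the others. Rb1, the repressor of E2F, had -0.85 ± 0.01, and -0.18 by its other probe. Also Nullscript-high were Max at -0.49 ± 0.10, Mxi1 at -0.45 ± 0.15 and Mxd3 at -0.31 ± 0.04. So were E2f2 at -0.22 ± 0.07, Tfdp2 at -0.20 ± 0.06 and E2f7 at -0.16 ± 0.07. By other probes Mxi1 had -0.03, Mxd3 -0.24, E2f7 -0.0058, and Tfdp2 0.016 and 0.023.

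Markers of several cell types moved with the drug label, and their part in the ratios of the members was not tested. Their counts stand beside 22.5% Scriptaid-high and 23.7% Nullscript-high among all genes. All markers in these lists were well above background on all 6 arrays in both channels. Counts use the brightest probe, and other probes could differ in either direction. For example, Pdgfra had 0.12 by its other probe against 0.86, Pecam1 0.0030 against 0.66 and Eya1 0.48 against 1.64. Col3a1 had 0.07 and 0.11 against 0.39, and Ptprc from -0.11 to 0.15 against 1.07. In contrast, Osr1 had 0.83 against 0.10 and Tek 0.48 against 0.03. Of 6 nephron progenitor markers, 6 were Scriptaid-high, with a median log2 ratio of 0.56 and a summed normalised intensity of 18475 to 20609 for Scriptaid against 9515 to 9932 for Nullscript. For stroma it was 5 of 6 higher and 1 lower (113644 to 122301 against 94972 to 108363). The lower gene, Col1a1, was saturated on 3 arrays in each channel, its other probes had -0.12 and 0.02, and without it 5 of 5 were higher (69703 to 77224 against 41064 to 49190). For endothelium it was 5 of 6 higher (11848 to 12313 against 8043 to 8831). For the ureteric bud 4 of 7 were higher and 1 lower (47224 to 52429 against 41855 to 45054). For red blood cells 2 of 6 were lower (26622 to 43727 against 32589 to 48884), for macrophages 3 of 6 were higher and 1 lower (4345 to 5472 against 3977 to 5282), and for neurons 1 of 6 was higher and 4 lower (5711 to 6326 against 5537 to 6843). Mki67, a marker of cycling cells, had 0.65 ± 0.12 (SD, n = 3) by its brightest probe and 0.65 by its other probe. It is 1 of the 6 genes known to fall elsewhere, of which 2, Top2a and Birc5, did not pass. Top2a had 0.03 ± 0.17, with -0.16 and -0.0079 by its other probes. Birc5 had -0.10 ± 0.12 and was saturated on 3 arrays for Scriptaid and on 1 for Nullscript.

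The genes whose 6 array ratios were most like those of Rrm2, by the root mean square difference over the 6 arrays among all 26498 genes, were Rgs19 at 0.0489, Ndnf at 0.0716, Etl4 at 0.0735, Eci1 at 0.0748 and Mettl25 at 0.0757. Their mean log2 ratios lay between 1.07 and 1.18. Of all genes, 295 (1.11%) had a higher ratio than Rrm2 and 416 (1.57%) a higher one than Ctps2. With the drug names exchanged, the same numbers of genes would have lower ratios than these 2.

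Within the first slide, with replicates 1 and 2 alone, 7 members were Scriptaid-high and 1 Nullscript-high. These replicates are part of the data behind the calls above, so this is not an independent repeat. On the second slide, replicate 3 had 1.16 for Rrm2, 1.05 for Ctps2, 0.76 for Tyms, 0.67 for Rrm1, 0.64 for Tk1, 0.40 for Ctps, 0.25 for Cad and -0.43 for Impdh2. These values have the signs of the means over all replicates.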

How the data were processed

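RNA was measured on 6 2-colour Agilent arrays. Per the file headers, Agilent Feature Extraction 9.1.3.1 gave the deposited intensity of each spot and of its background, processed intensities, and a deposited log10 ratio, Cy5 against Cy3. The authors also deposited a value table of log10 ratios, which equal the scanner ratios turned to Scriptaid over Nullscript, within 4.82e-06, with column medians from -0.00959 to -0.00136 and no further centring.

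In limma 3.58.1 (R 4.3.3), mean intensities went through normexp (offset 50) and loess, control spots having weight 0. Spots marked as outliers were left out, which removed no member spot. Kept were probes that, for at least 1 drug, were well above background on 3 or more of the 6 arrays, and a gene is its brightest probe. Levels were also scaled between arrays by Aquantile. The 2 arrays of a replicate were averaged, since the labels give both the same replicate number and call the replicates biological. After the mean of each dye orientation was removed, the 2 arrays of a pair correlated at 0.61, 0.15 and -0.03. Arrays of different replicates correlated at -0.39 to 0.21, a range above which only the pair of replicate 1 lay. The mean was tested against 0 with lmFit and eBayes, Benjamini-Hochberg adjusted over all genes. Dye orientation was tested with all 6 arrays in the fit and replicate as a random block. The fit was tested on simulated data with independent noise on each array, so without a correlation within pairs. Of 100 genes given a log2 change of 0.3, 52% passed with the right sign, and of 100 given 0.6, 92%. Among all other genes, which were left unchanged, 3 passed. In the data 46.2% of genes passed, so the adjustment sets another cutoff there. The simulated shares therefore do not carry over to the data. List values without genes that had saturated spots were added after the data were seen.

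The members and lists were chosen with earlier results of these data known. The rule for named genes takes the 9 members, up to 4 genes per list with the largest absolute ratios among those that passed with 1 sign in all replicates, 6 relatives or regulators by name, and the 5 genes nearest to the member with the largest ratio. One gene that the rule takes is not reported here. Dhodh, Prps1, Adsl, Adss, Tuba1a, Top2a and Birc5 fall outside it. So do the Nullscript-high genes of the replication and E2F, Rb and Myc lists, apart from Rb1. All these genes outside the rule were picked with their values known. The markers are given by list, some of them named for their other probes. Probes were named through accession, current or older symbol in a RefSeq table of GRCm38.p6 (22951, 6659 and 3109 of 41174), and 8455 kept the file's name.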

Additional observations from a re-analysis of the deposited data

Results flagged for a closer look

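For 4 of the member and list genes that the rule takes, the ratio differed between arrays with Scriptaid in Cy3 and in Cy5. This was tested with limma on 6 arrays and is given as the log2 ratio of the former minus the latter. Outside the rule, Tuba1a (1.52, adjusted p = 0.00071) and E2f7 (-0.369, adjusted p = 0.0394) differed too. Ctps had -0.383 (adjusted p = 0.0458), with all 6 arrays above 0. E2f1 had -0.530 (adjusted p = 0.003) and Mycn -0.523 (adjusted p = 0.00124). Nme2 had 1.54 (adjusted p = 0.000173), and it was saturated on 6 arrays for Scriptaid and on 4 for Nullscript. Adjusted over probes, the difference of Ctps had an adjusted p of 0.0561 and did not pass.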

How the results depend on the processing

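Under all 17 alternatives the 7 Scriptaid-high members and the 1 Nullscript-high member kept their direction and passed. These alternatives were other background, normalisation and filter choices, the mean over all probes, the intensity trend, the slide, the replicate block, each dye orientation alone and each replicate left out. The log2 ratio of Rrm2 ranged from 1.02 to 1.25, that of Ctps2 from 0.95 to 1.12, that of Tyms from 0.48 (mean over its probes) to 0.84, and that of Impdh2 from -0.54 to -0.34. Umps passed under none (adjusted p from 0.0527 to 0.799) and turned to 0.014 with median centring. The other filters, leaving out saturated spots, the replicate block and the intensity trend left the ratios of all members as they were. These settings could change only their p-values. On the arrays with Scriptaid in Cy3 alone E2f1 turned to -0.015. Nme2 had 0.41 there, but with its saturated spots neither this value nor its sign can be read as a ratio. With the replicate block 6302 and 6549 genes passed, and the block changed no call of a member. Leaving out each replicate in turn gave 4329 to 5697 Scriptaid-high genes and 4001 (without replicate 3) to 5699 Nullscript-high ones, and for probes 6337 to 8613 and 5331 (without replicate 3) to 7784. With median centring in place of loess 17278 genes differed between dye orientations, against 1435. The causes were not tested. The 3 replicates, and for dim probes the signal over background, limit the precision.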
